A study of Homo sapiens with 4 samples.

Results

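The HSP70 family of cytosolic and nuclear chaperones was followed on whole-genome arrays of A549 cells, a human lung adenocarcinoma line, after treatment with embelin, a benzoquinone natural product. The family was taken as 10 genes, HSPA1A, HSPA1B, HSPA1L, HSPA2, HSPA4, HSPA4L, HSPA6, HSPA8, HSPA14 and HSPH1, and its probes were those that carry the name of a member or list a RefSeq transcript of one. This rule found 17 of the 50238 probes on the array, and all 10 genes had at least 1. Total RNA came from 2 untreated control samples and 2 samples treated with 15 µM embelin for 4 h, each labelled with Cy3 and hybridized to an array of its own. In both groups the medium had been changed before treatment to one with less serum. The labels do not say whether the replicates of a group came from separate cultures, so the p-values measure the spread between these samples, which may be technical.

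HSP70 proteins bind exposed hydrophobic stretches of unfolded proteins and release them in a cycle of ATP binding and hydrolysis. J-proteins such as DNAJB1 start this cycle by stimulating hydrolysis, and nucleotide exchange factors such as the BAG proteins and the HSP110 proteins (HSPA4, HSPA4L and HSPH1) complete it. HSPA8 (HSC70) is made constitutively, whereas HSPA1A, HSPA1B and HSPA6 are the classical stress-inducible members, transcribed when heat shock factor 1 (HSF1) binds heat shock elements in their promoters. HSPA1A and HSPA1B lie close together in the major histocompatibility complex region and encode nearly the same protein.

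Which transcript a probe reads matters in this family, so 8 of the probes on which the results turn are shown first, each read from the deposited files from 5′ to 3′. All 17 probes are 60 bases long, and 5 of the 8 shown are given by their first 30 bases. The capitals mark the longest run shared by probes of different members, 11 bases in HSPA1A P682285 and HSPA8 P295745. No other pair of different members shared more than 8. Probes were compared only with other probes, which may lie at other places in their transcripts. Whether a probe also binds the transcript of another member was therefore not tested. Probes are named by their gene and the end of their name in the files.
HSPA1A P111132, first 30 bases: gagcttcaagactttgcatttcctagtatt
HSPA1A P123616: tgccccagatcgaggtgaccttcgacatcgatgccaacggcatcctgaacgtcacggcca
HSPA1A P682285: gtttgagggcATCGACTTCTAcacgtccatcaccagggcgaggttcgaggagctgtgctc
HSPA1B 2418, first 30 bases: gatactgtaagggtgtttcgttccctttaa
HSPA1B 2419, first 30 bases: gttgtaacctgatggtaattagctggcttc
HSPA6 P114903: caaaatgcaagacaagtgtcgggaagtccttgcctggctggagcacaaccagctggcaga
HSPA8 P24594, first 30 bases: gttactgggcattctcaatacttgaatatg
HSPA8 P295745: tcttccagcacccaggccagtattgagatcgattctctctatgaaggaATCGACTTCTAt

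HSPA1A P123616 and HSPA1A P682285 list transcripts of both HSPA1A and HSPA1B in the files, so their signal cannot be assigned to 1 of the paralogs. HSPA1A P111132 lists HSPA1A alone, and both HSPA1B probes list HSPA1B alone. HSPA8 P24594 and HSPA8 P287129 have the same 60 bases and are repeat measurements of 1 sequence, and HSPA8 P13728 shares 42 bases with them. Outside the family the search for runs of at least 20 shared bases found 1 probe on the array, that of the transcript cluster THC2512545, with 22 bases in common with these 3 HSPA8 probes.

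All values are log2 signals after each array was scaled to the same 75th percentile, 675 on all 4 arrays against 601 to 739 before scaling. The 4 arrays lay on 1 slide, no spot was saturated, and between 50.3% and 66.8% of the probes were well above background by the scanner software, with 1 array of each group near either end. A probe was kept for testing when 1 group or both had it well above background on each of their arrays, which left 26163 probes in all and 16 of the 17 family probes, from 9 genes. Each change is the log2 fold change of embelin minus control from limma, with its standard error (SE) or 95% confidence interval and a p-value adjusted by Benjamini-Hochberg over all kept probes. Among all kept probes the median change was -0.04. All 8 marker genes listed for A549 cells, including KRT8 and AKR1B10, were well above background on every array. Of 9 markers of leukocytes, endothelium and fibroblasts, 2 (COL1A1 and CD14) were well above background on all arrays and 2 (CDH5 and DCN) on none. The summed signal of that list was 888 and 1009 in the controls and 1565 and 788 with embelin. On embelin replicate 1 the sum holds 464 from a COL3A1 probe and 191 from a PTPRC probe. Each of these was well above background on that array alone. COL1A1, a fibroblast collagen, was higher with embelin on each of its probes, by 1.30, 1.83 and 1.76 (limma, adjusted p = 0.0663, 0.0481 and 0.0516). Only the probe at 1.83 was called. Of the 6 kept probes of that list, 2 were lower with embelin. The sample labels name A549 cells and no other cell type. Whether the signals of these markers bear on the values of the HSP70 genes was not tested.

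**Figure D1:**
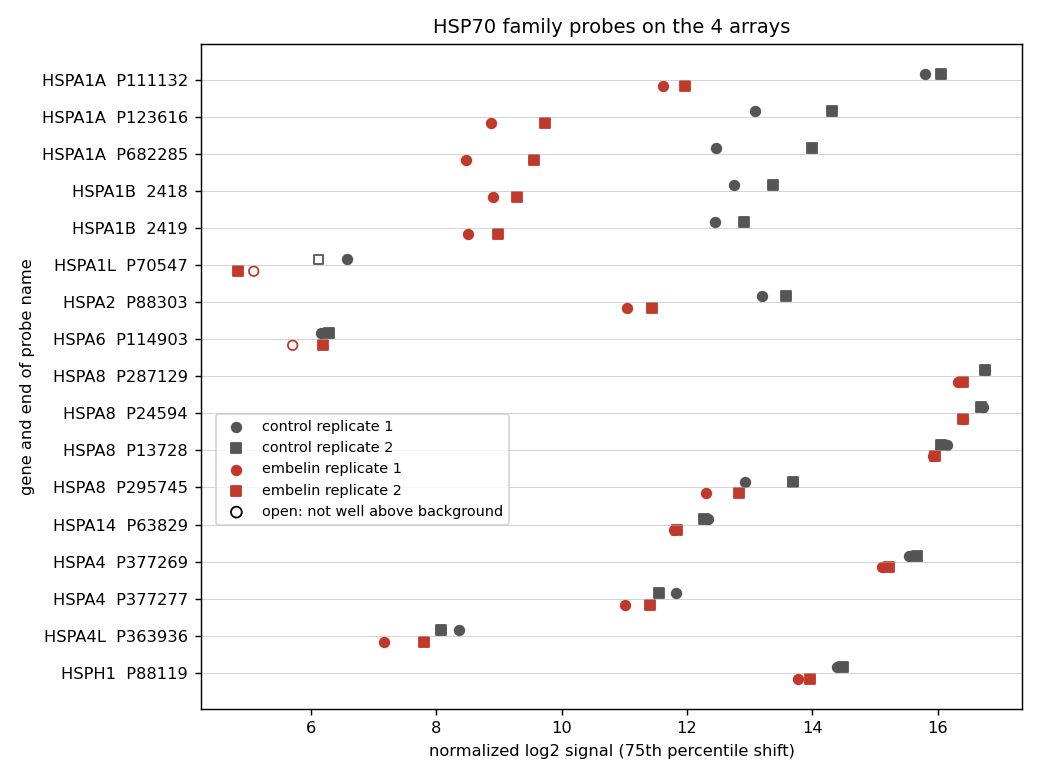
Normalized log2 signal (horizontal axis) of each of the 17 HSP70 family probes on each array, controls in grey and embelin in red. The embelin points lie about 4 log2 units to the left of the control points for all 5 probes of HSPA1A and HSPA1B, and much nearer to them for HSPA8, HSPA4, HSPA14 and HSPH1.

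Treatment with embelin was followed by signals of HSPA1A and HSPA1B that were 15.4- to 21.2-fold lower over their 5 probes, and that of HSPA2 was 4.43-fold lower. The other 10 kept probes, of HSPA4, HSPA4L, HSPA6, HSPA8, HSPA14 and HSPH1, were 1.12- to 1.67-fold lower. With limma, 3 probes of 2 genes (HSPA1A P111132 and both HSPA1B probes) were called lower at an adjusted p under 0.05, where 0.248% of all kept probes were called lower. None of the 16 was called higher, at the adjusted threshold or at an unadjusted p under 0.05, where 0.829% and 8.25% of all kept probes were higher. Without adjustment 8 family probes of 5 genes passed in the lower direction, beside 9.62% of all kept probes. A fall of at least 2-fold was measured for 6 of the 16 probes, from 3 genes, beside 5.51% of all kept probes. Both embelin arrays lay under both control arrays in 15 of the 16 probes, the exception being HSPA6, beside 28.3% of the kept probes with a value on every array. In arrays of RNA from whole cultures, fewer cells with a transcript and less transcript per cell cannot be told apart.

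HSPA1A, the major inducible HSP70, was read by the brightest of its probes, P111132, at a normalized log2 signal of 15.80 and 16.06 in the controls and of 11.62 and 11.96 after embelin. The lowest control array stood 3.84 above the highest embelin array on this scale. HSPA1A P111132 fell by 4.14 on the log2 scale (SE 0.23, 95% interval -4.75 to -3.53, limma, adjusted p = 0.0259), 17.6-fold. Of the 26162 probes tested, 6 had a lower fold change.

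The probes shared by HSPA1A and HSPA1B gave changes of the same size with a wider spread. HSPA1A P123616 read 13.08 and 14.32 in the controls and 8.86 and 9.73 with embelin, a difference of -4.41 (95% interval -5.87 to -2.94, limma, adjusted p = 0.0570). HSPA1A P682285 read 12.47 and 14.00 in the controls and 8.47 and 9.56 with embelin, a difference of -4.22 (95% interval -6.01 to -2.42, limma, adjusted p = 0.0796). Neither passed the adjusted threshold, and in both the groups were far from overlapping, with gaps of 3.35 and 2.90 between the nearest arrays of the groups. Their size depended on single arrays: leaving out control replicate 1 gave -5.02 for HSPA1A P123616 and -4.99 for HSPA1A P682285, and leaving out control replicate 2 gave -3.79 and -3.45. On both probes replicate 2 was the higher array within each group, by 1.24 and 1.54 in the controls and by 0.86 and 1.09 with embelin. HSPA8 P295745 had the same order, by 0.77 and 0.53. These 3 are the family probes with replicate 2 at least 0.5 above replicate 1 in both groups, a threshold chosen after the values were seen, and 4.25% of the kept probes with 4 values did likewise. By contrast HSPA1A P111132 differed between replicates by 0.26 and 0.34.

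HSPA1B, the neighbouring gene with nearly the same coding sequence, fell on both of its own probes. HSPA1B 2418 read 12.75 and 13.38 in the controls and 8.90 and 9.29 with embelin, a change of -3.97 (SE 0.30, 95% interval -4.79 to -3.14, limma, adjusted p = 0.0307). HSPA1B 2419 read 12.45 and 12.91 against 8.50 and 8.98, a change of -3.95 (SE 0.28, 95% interval -4.71 to -3.18, limma, adjusted p = 0.0286). The fold changes of HSPA1A P111132 and of both HSPA1B probes lay within each other's intervals, and whether the paralogs differ in their response was not tested.

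The adjusted calls of HSPA1A and HSPA1B rest on all 4 arrays. Over the 15 alternative settings the adjusted p of HSPA1A P111132 ran from 0.00046 to 0.505, and 8 of them ended the call. Leaving out any 1 array ended all 3 calls, while the fold changes stayed between -4.31 and -3.97 for HSPA1A P111132, between -4.28 and -3.66 for HSPA1B 2418 and between -4.18 and -3.71 for HSPA1B 2419. With 2 arrays in each group, the smallest p an exact permutation test (two-sided) allows is 0.333. One array of each group had fewer probes well above background, and between arrays alike in this respect HSPA1A P111132 differed by -3.84 (embelin replicate 2 minus control replicate 1) and by -4.44 (embelin replicate 1 minus control replicate 2). HSPA1B 2419 differed by -3.48 and -4.41 in the same pairs.

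**Figure D2:**
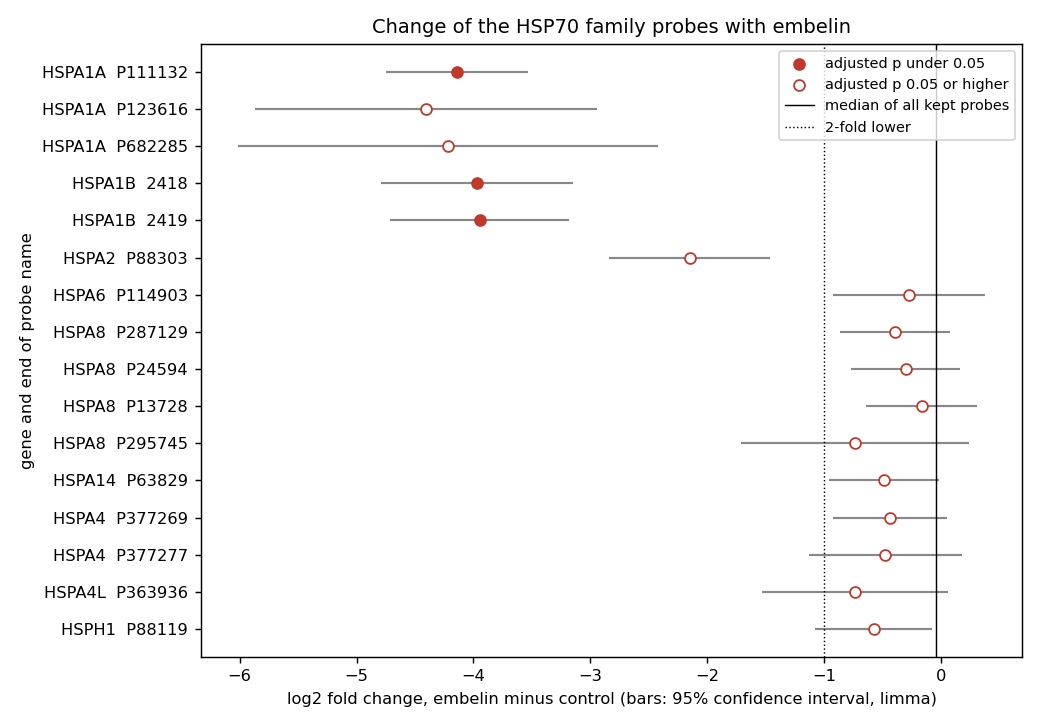
Log2 fold change of embelin minus control (horizontal axis) for the 16 kept HSP70 family probes, with the 95% confidence interval of limma as bars. Probes with an adjusted p under 0.05 are filled. The 5 probes of HSPA1A and HSPA1B lie between -4.41 and -3.95, HSPA2 at -2.15, and the remaining 10 between -0.74 and -0.16.

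HSPA2, a member best known for its role in male germ cells, was the only other kept member at least 2-fold lower. HSPA2 P88303 read 13.20 and 13.57 in the controls and 11.04 and 11.44 with embelin. The groups were 1.76 apart at their nearest arrays. The difference was -2.15 (SE 0.25, 95% interval -2.84 to -1.46, limma, adjusted p = 0.0547) and so just missed the adjusted threshold. It passed under 4 of the 15 alternative settings tried, among them the filter that asked for all 4 arrays (adjusted p = 0.0231) and 1 probe per gene (adjusted p = 0.0481), both with the same difference, and over all 15 its adjusted p ran from 0.0037 to 0.580.

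HSPA6 and HSPA1L, the other member linked to stress and the testis-enriched neighbour of HSPA1A, were dim. HSPA6 P114903 read 6.16 and 6.28 in the controls and 5.71 and 6.19 with embelin, where 1 of the 2 arrays was not well above background, so that it was kept through the control arrays alone. Embelin replicate 2 lay above control replicate 1, so that the groups overlapped. The difference was -0.27 (95% interval -0.93 to 0.38). No p-value is given for it here, since the arrays that kept the probe are those in which it was brighter. HSPA1L P70547 was well above background on 1 of 2 arrays in each group and was not kept for testing. Its signal was 6.57 and 6.12 in the controls and 5.08 and 4.83 with embelin.

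HSPA8, the constitutive member, was lower by less than 2-fold on all 4 of its probes. HSPA8 P287129 read 16.76 on both control arrays and 16.33 and 16.40 with embelin, a difference of -0.39 (95% interval -0.86 to 0.08, limma, adjusted p = 0.348). HSPA8 P24594, which has the same sequence, read 16.73 and 16.70 against 16.41 and 16.41, a difference of -0.30 (95% interval -0.77 to 0.16). The repeat measurements of the sequence thus differed by less than either interval is wide. HSPA8 P13728 differed by -0.16 (95% interval -0.64 to 0.31) and HSPA8 P295745 by -0.74 (95% interval -1.71 to 0.24). The first 3 of these intervals leave out a 2-fold fall. That of HSPA8 P295745 does not, and this probe gave -1.12 with control replicate 1 left out and -0.35 with control replicate 2 left out.

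The HSP110 members and HSPA14 were also lower on every embelin array than on any control array, by less than 2-fold and with none called. HSPA4 P377269 read 15.54 and 15.67 in the controls and 15.11 and 15.23 with embelin (difference -0.43, 95% interval -0.93 to 0.06), and HSPA4 P377277 differed by -0.47 (95% interval -1.13 to 0.18). HSPH1 P88119 read 14.39 and 14.50 against 13.78 and 13.96, a difference of -0.57 (95% interval -1.08 to -0.07, limma, adjusted p = 0.233). With HSPA6 left out, HSPH1 had the lowest adjusted p of the kept family probes under 2-fold, and its interval holds a 2-fold fall. HSPA4L P363936 read 8.37 and 8.08 against 7.17 and 7.81 (difference -0.73, 95% interval -1.53 to 0.06), and the difference was -1.05 without embelin replicate 2 and -0.41 without embelin replicate 1. HSPA14, which encodes a ribosome-associated HSP70 protein, was read by P63829 at 12.34 and 12.27 against 11.79 and 11.85 (difference -0.48, 95% interval -0.95 to -0.01). Over all kept family probes under 2-fold, those of HSPA8 among them and HSPA6 left out, adjusted p-values ran from 0.233 to 0.693 in limma.

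**Figure D3:**
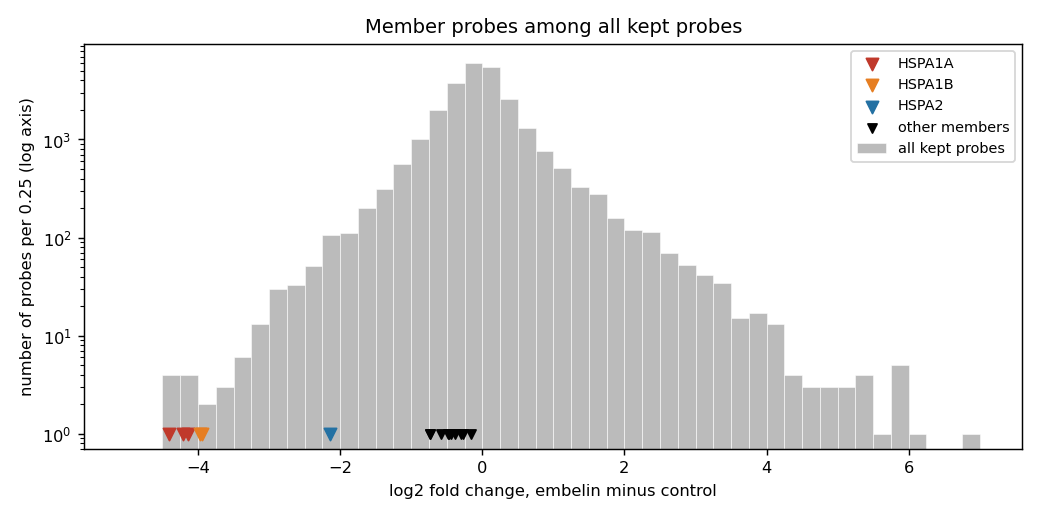
Histogram of the log2 fold changes (embelin minus control) of all kept probes, with the number of probes per bin of 0.25 on a log axis and the 16 family probes as triangles. The triangles of HSPA1A and HSPA1B lie at the lower end of the distribution, HSPA2 in its lower tail, and the others on the lower side of its centre.

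Set against all kept probes, the 16 family probes had a median log2 fold change of -0.65, where the median of all was -0.04 and the lower 5% ended at -1.05. All 16 family probes lay under the median of all, among them HSPA6, which was kept only through the controls, where it was brighter. For HSPA1A and HSPA1B, between 2 and 9 of the tested probes had a lower fold change than each of the 5 probes. For HSPA2 it was 182 probes (0.696%), and for HSPA8 P13728, the member nearest to 0, it was 38.3%.

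The 5 kept probes outside the family whose values over the 4 arrays, relative to the control mean, lay nearest to those of HSPA1A P111132 were 2 probes of SOX2, a stem cell transcription factor, and 1 each of RNF43, VAV3 and IFIT1. Their Euclidean distances on the log2 scale were 0.35 and 0.61 for SOX2, 0.55 for RNF43, 0.63 for VAV3 and 0.87 for IFIT1. Likeness over 4 arrays is mainly likeness in the size of the fall, which was -4.29 and -4.22 for SOX2, -4.44 for RNF43, -3.74 for VAV3 and -3.60 for IFIT1. The RNF43 probe was not well above background on embelin replicate 1. It was kept through the control arrays alone, in which it was brighter.

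Genes that work with the HSP70 proteins were followed as lists, which had been chosen with earlier results of these data known. Other members of the HSP70 superfamily, which work in organelles or are divergent, were read by 8 kept probes of 6 genes, and none was called or 2-fold changed. Their median change was -0.20. These include the probe of HSPA12B, which was not well above background on embelin replicate 1. It was kept through the control arrays alone, in which it was brighter. HSPA13, a microsomal member, had the largest value, at 10.82 and 10.51 in the controls and 11.48 and 11.63 with embelin (difference 0.90, limma, adjusted p = 0.145).

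HSP70 partners, the J-proteins, exchange factors, Hip, Hop and CHIP, were read by 23 kept probes of 11 genes, with a median of -0.25. No probe was called in either direction after adjustment, 6 were lower without adjustment (9.62% of all kept probes), and 6 were at least 2-fold lower (5.51% of all kept probes). DNAJB1, the main heat-inducible J-protein, had the largest difference, from 11.60 and 11.94 in the controls to 10.22 and 10.29 with embelin (-1.51, limma, adjusted p = 0.0653). The other 5 probes at least 2-fold lower were chosen for mention after their values were seen. They are the 3 probes of DNAJA1, another J-protein (2 with differences of -1.15 and -1.19 and 1 at the 2-fold limit itself), the probe of BAG2 (-1.18, limma, adjusted p = 0.0716) and 1 of the probes of BAG3 (-1.04, limma, adjusted p = 0.145).

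Other target genes of HSF1, 39 kept probes of 19 genes that include HSP90AA1, HSPB1 and HSPD1 and, as in the partner list, DNAJB1, BAG3 and STIP1, had a median of -0.12. None was called in either direction, and 6 were lower and 4 higher without adjustment, beside 9.62% and 8.25% of all kept probes. At least 2-fold lower were 4, beside 5.51% of all kept probes, and at least 2-fold higher was 1, beside 6.78%. The 4 lower were named after their values were seen. They were both probes of DNAJB4 (-1.20 and -1.41) and the DNAJB1 and BAG3 probes already given among the partners. The one higher was CRYAB, a small heat shock protein, which read 5.73 and 5.33 in the controls, where 1 of 2 arrays was not well above background, and 7.05 and 7.31 with embelin. It was kept through the embelin arrays alone, in which it was brighter, so its values are given without a test. The heat shock factors themselves were read by 4 probes of 3 genes, of which none was called or 2-fold changed. HSF1 differed by 0.32, HSF4 by 0.41, and the 2 probes of HSF2 by -0.68 and -0.64. The HSF2 probe at -0.64 was not well above background on embelin replicate 1. It was kept through the control arrays alone, in which it was brighter.

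**Figure D4:**
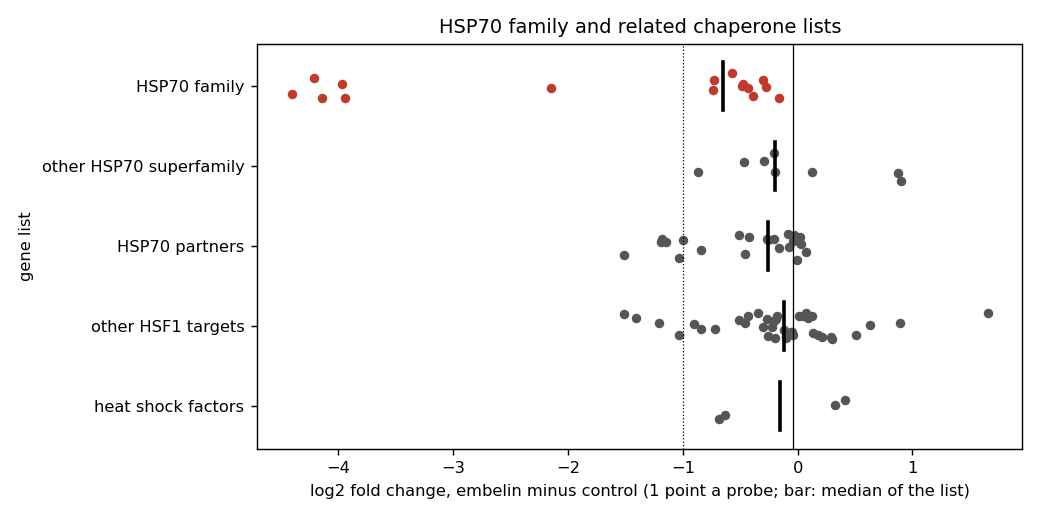
Log2 fold change of embelin minus control for each kept probe of the HSP70 family (red) and of 4 related gene lists (grey), 1 point a probe, with the median of each list as a black bar, the median of all kept probes as a thin line and a 2-fold fall as a dotted line. The family median is -0.65 and the list medians lie between -0.25 and -0.12, and only family probes lie under -2.

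The promoters of the members were searched for the heat shock element core, since HSPA1A and HSPA1B changed together. The motifs were GAANNTTC and TTCNNGAA, each of which reads the same on both strands and which may overlap each other, in the RefSeq promoter windows of build GRCh38.p14, from 250 bases before to 50 after each annotated start. Of all 35116 windows 13.5% held at least 1 core. A window was given for 9 of the 10 members (HSPA14 had none in the table), and 6 of the 9 held at least 1 core. Counted by window, as the share over all windows is, 6 of 11 did. The upstream 250 bases are shown for the genes that differed most and for HSPA6 and HSPA8, which hold most cores, with the cores in capitals. HSPA6 and HSPA8 were under 2-fold lower, but HSPA6 was dim, with 1 embelin array not well above background. This limits the fall that HSPA6 could show.
HSPA1A, chr6:31815293-31815542, plus strand: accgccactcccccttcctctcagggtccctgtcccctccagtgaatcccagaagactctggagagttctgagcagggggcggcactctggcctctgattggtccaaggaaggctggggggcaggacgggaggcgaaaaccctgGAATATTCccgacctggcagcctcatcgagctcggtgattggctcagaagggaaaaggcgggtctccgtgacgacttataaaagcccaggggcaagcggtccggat
HSPA1B, chr6:31827488-31827737, plus strand: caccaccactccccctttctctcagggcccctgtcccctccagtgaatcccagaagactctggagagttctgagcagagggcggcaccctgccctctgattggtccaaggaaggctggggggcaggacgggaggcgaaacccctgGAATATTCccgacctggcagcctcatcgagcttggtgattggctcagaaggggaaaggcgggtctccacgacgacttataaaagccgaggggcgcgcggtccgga
HSPA2, chr14:64540491-64540740, plus strand: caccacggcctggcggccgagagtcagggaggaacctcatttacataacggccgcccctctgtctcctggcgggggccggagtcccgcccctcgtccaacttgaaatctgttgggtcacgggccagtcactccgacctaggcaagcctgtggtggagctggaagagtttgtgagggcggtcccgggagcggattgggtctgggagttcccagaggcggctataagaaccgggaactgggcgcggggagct
HSPA6, chr1:161524290-161524539, plus strand: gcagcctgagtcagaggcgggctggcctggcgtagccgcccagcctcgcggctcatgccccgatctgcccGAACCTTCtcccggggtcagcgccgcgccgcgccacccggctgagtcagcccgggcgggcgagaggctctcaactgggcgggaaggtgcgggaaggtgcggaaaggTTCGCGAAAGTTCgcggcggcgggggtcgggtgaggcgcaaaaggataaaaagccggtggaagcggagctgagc
HSPA8, chr11:123062137-123062386, minus strand: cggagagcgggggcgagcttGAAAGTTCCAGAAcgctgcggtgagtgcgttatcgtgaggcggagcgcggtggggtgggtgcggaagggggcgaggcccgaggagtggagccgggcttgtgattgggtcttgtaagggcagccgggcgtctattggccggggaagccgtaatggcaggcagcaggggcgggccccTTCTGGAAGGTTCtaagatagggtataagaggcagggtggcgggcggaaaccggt

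HSPA1A and HSPA1B each held 1 core, GAATATTC, at 106 and 105 bases before the start. Over the upstream 250 bases the promoters were alike at 235 of 251 aligned columns (93.6%), with 14 mismatches and 2 gap bases. The core in the window of HSPA1L, 161 bases before its start on the other strand, is the same genomic site as that of HSPA1A. HSPA6 held 3 cores, the last 2 of which overlap, and HSPA8 held 4 in 2 overlapping pairs, numbers reached by 0.194% (3 or more) and 0.0285% (4 or more) of all windows. HSPA4L held 1 in 1 of its 3 windows, and HSPA2, HSPA4 and HSPH1 held none. HSPA2, without a core in its window, was 4.43-fold lower, and the 4 probes of HSPA8, with 4 cores, differed by -0.74 to -0.16. A match to these letters is a description and no evidence of binding, and a core outside the window would not be seen. Whether heat shock elements or HSF1 had a part in any of these changes was not tested.

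**Figure D5:**
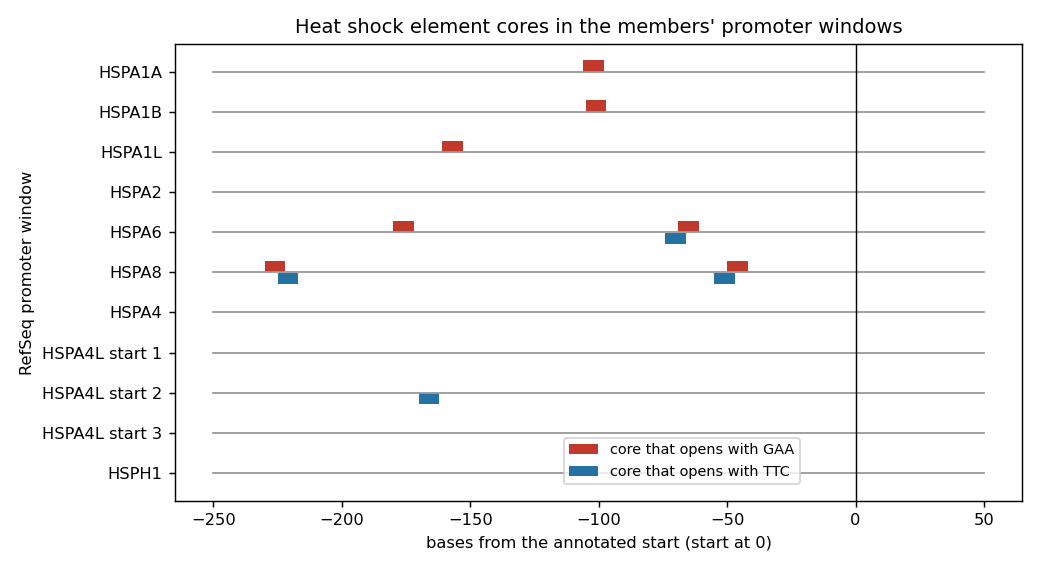
Positions of the heat shock element cores in the RefSeq promoter windows of the 9 members that have one, as bases from the annotated start (horizontal axis, start at 0), with cores that open with GAA in red and those that open with TTC in blue. HSPA6 and HSPA8 hold 3 and 4 cores, HSPA1A and HSPA1B 1 each, and HSPA2, HSPA4 and HSPH1 none.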

How the data were processed

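The authors deposited the intensity of every spot as written by Feature Extraction 10.7.3.1 (per the file headers), after background subtraction and detrending and without normalization between arrays. A deposited table of probe intensities was used as an alternative. Here each array was shifted to a common 75th percentile, as the study's methods name, given a floor of 1 and log2-transformed. Outlier and control spots were left out and spots of a probe averaged. Probes well above background on both arrays of a group were tested with limma 3.58.1 in R 4.3.3 (lmFit, eBayes, no covariate), with Benjamini-Hochberg adjustment over all 26162 probes with a p-value. The procedure was tested on simulated data.

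All members were named, and of each list the probe with the largest difference, or the called ones. The members and lists were chosen with earlier results of these data known. The file headers name an older build than the promoter table, and no probe was placed on a genome. Precision is limited by the number of arrays. The 15 alternatives tried are given in the closing section.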

Additional observations from a re-analysis of the deposited data

How the results depend on the processing

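The 3 family probes called lower became 6 with normexp background correction, 6 with a filter for all 4 arrays and 6 with trend and robust in eBayes. They became 0 with no filter on dim probes (7 at an unadjusted p under 0.05), 0 by the methods' t-test after Benjamini-Hochberg adjustment, which the methods do not name (11 unadjusted, of which 6 were also at least 2-fold lower), 0 with slide position as a covariate (6 unadjusted), and 0 to 0 when each array was left out in turn (6 to 7 unadjusted). With the replicate block 0 were called (8 unadjusted), and so were 0 of all kept probes in either direction. Replicate numbers were not taken as pairs, since there are only 2 and the correlation of same-numbered deviations was 0.21. A group left with a single array borrows its spread from the other group in limma. With 1 value per gene, 3 of 9 genes were at least 2-fold lower and 8 of 9 had no overlap, under both the brightest probe and the mean. The count of probes at least 2-fold lower was 6 to 8 without each array. No family probe was called higher under any setting. Of 225 values of single probes, 0 changed direction, 191 kept their side of the threshold, 24 lost the call and 10 gained it. The 24 losses all fell on the 3 called probes, 8 on each. HSPA1A P111132 and HSPA1B 2418 had values under 15 settings and HSPA1B 2419 under 13. Over all kept probes 65 were called lower and 217 higher. These became 279 and 541 with normexp, 550 and 742 with trend and robust, 292 and 478 with the filter for all 4 arrays, 31 and 163 with quantile normalization, 26 and 132 from the deposited table, 98 and 221 with the brightest probe of each gene, and 0 and 0 by the methods' t-test, with no filter, with position or without any array. The causes of these shifts were not tested.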

Other observations

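Related transcripts outside the family list were also on the array. HSPA7, a pseudogene close to HSPA6 in sequence, read 1.78 and 9.63 (log2 signal) in the controls and 3.95 and 1.83 with embelin, and was well above background on control replicate 2 alone. It was not kept for testing. LOC402125, annotated as similar to HSPA8, read 5.05 and 4.81 in the controls and 4.83 on the embelin array with a value, the other having been marked as an outlier (difference -0.10, limma, adjusted p = 0.903).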
